A study of Mus musculus with 12 samples.

Results

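Hedgehog signalling was followed through 10 genes: the receptors Ptch1 and Smo, the co-receptors Gas1, Boc and Cdon, the Gli transcription factors Gli1, Gli2 and Gli3, their inhibitor Sufu, and Hhip, a decoy receptor and target gene. The genes were listed by their role in the pathway, with earlier results of these data known. All 10 were among the 17097 named genes of the arrays. They were measured in 4 fibroblast populations sorted from the dermis of 2-day-old female mice, 3 littermates per population and 1 Affymetrix array for each animal and population, 12 arrays in all. The populations were papillary fibroblasts (CD26+/Dlk1-/Sca1-), Dlk1- Sca1+ cells (CD26-/Dlk1-/Sca1+) and Dlk1+ Sca1+ cells (CD26-/Dlk1+/Sca1+), the last 2 labelled pre-adipogenic, and reticular fibroblasts (CD26-/Dlk1+/Sca1-). All cells shared the same gate before this division, positive for Pdgfra and CD34 and negative for CD45, CD117, CD31 and EpCam, and came from skin from which the subdermis had been removed. RNA came from 4500 cells a sample and was amplified for 21 cycles, and 8 µg of cDNA was labelled. The labels used here name no mouse strain, and every animal belonged to the same litter, so the 3 animals sample the spread within 1 litter.

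Hedgehog ligands bind Ptch1, which in their absence holds Smo inactive. Once Smo is released, it acts at the primary cilium so that Gli proteins are no longer cut into repressors, and Gli activators switch on target genes that include Ptch1, Gli1 and Hhip themselves. In skin, Shh made by the hair follicle epithelium signals to the dermis below it and is needed for follicle growth and for the dermal papilla.

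The 10 genes fell into 3 patterns across the populations. Smo, Gli3, Gas1, Boc, Cdon and Sufu had their highest mean in papillary fibroblasts and their lowest in Dlk1- Sca1+ cells. Ptch1, Gli1 and Gli2 had the reverse order of extremes, highest in Dlk1- Sca1+ cells and lowest in papillary fibroblasts. Hhip stood by itself, highest in Dlk1+ Sca1+ cells and lowest in reticular fibroblasts. All 10 passed limma's F-test over the 4 populations at an adjusted p below 0.05, as did 35.7% of all genes, and 9 passed without papillary animal 3.

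Hhip and Gas1 had the largest and the third largest spans between population means among the 10 genes, 1.42 and 1.20 on the log2 scale, and their extremes lay in different populations. Their promoters, 250 bases before to 50 bases after the gene start in RefSeq, are shown for that reason. The Hhip promoter lies at chr8:80057959-80058258 on the minus strand of GRCm38.p6 and the Gas1 promoter at chr13:60177486-60177785 on the minus strand of GRCm38.p6. Each is written 5′ to 3′ on the strand of its gene, and capitals mark GC boxes (GGGCGG on either strand).
Hhip: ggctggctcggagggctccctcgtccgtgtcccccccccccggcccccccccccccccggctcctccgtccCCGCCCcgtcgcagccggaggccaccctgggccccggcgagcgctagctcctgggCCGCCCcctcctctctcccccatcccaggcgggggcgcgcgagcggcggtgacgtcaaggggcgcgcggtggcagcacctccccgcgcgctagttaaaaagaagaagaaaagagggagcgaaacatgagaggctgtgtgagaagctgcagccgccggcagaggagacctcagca
Gas1: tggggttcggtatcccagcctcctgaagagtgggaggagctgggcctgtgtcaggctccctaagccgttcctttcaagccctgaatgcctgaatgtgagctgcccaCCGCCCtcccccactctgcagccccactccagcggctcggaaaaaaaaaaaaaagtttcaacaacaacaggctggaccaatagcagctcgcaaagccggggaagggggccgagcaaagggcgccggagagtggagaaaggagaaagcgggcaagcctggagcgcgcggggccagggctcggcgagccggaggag
The Hhip stretch had a GC content of 73.7% and 2 GC boxes, and the Gas1 stretch 62.3% and 1 GC box, where the median GC content over all 32851 RefSeq promoters of that length was 52.7%. RefSeq promoters were at hand for 8 of the 10 genes. A GC box was in 6 of these 8 and in 35.7% of all promoters. The Gli motif GACCACCCA, searched on both strands, was in 0 of the 8 and in 0.253% of all promoters, and its inner letters CCACCCA were in 0 of the 8 and in 9.3% of all. These counts describe the letters of these windows and nothing further away from the gene.

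**Figure D1:**
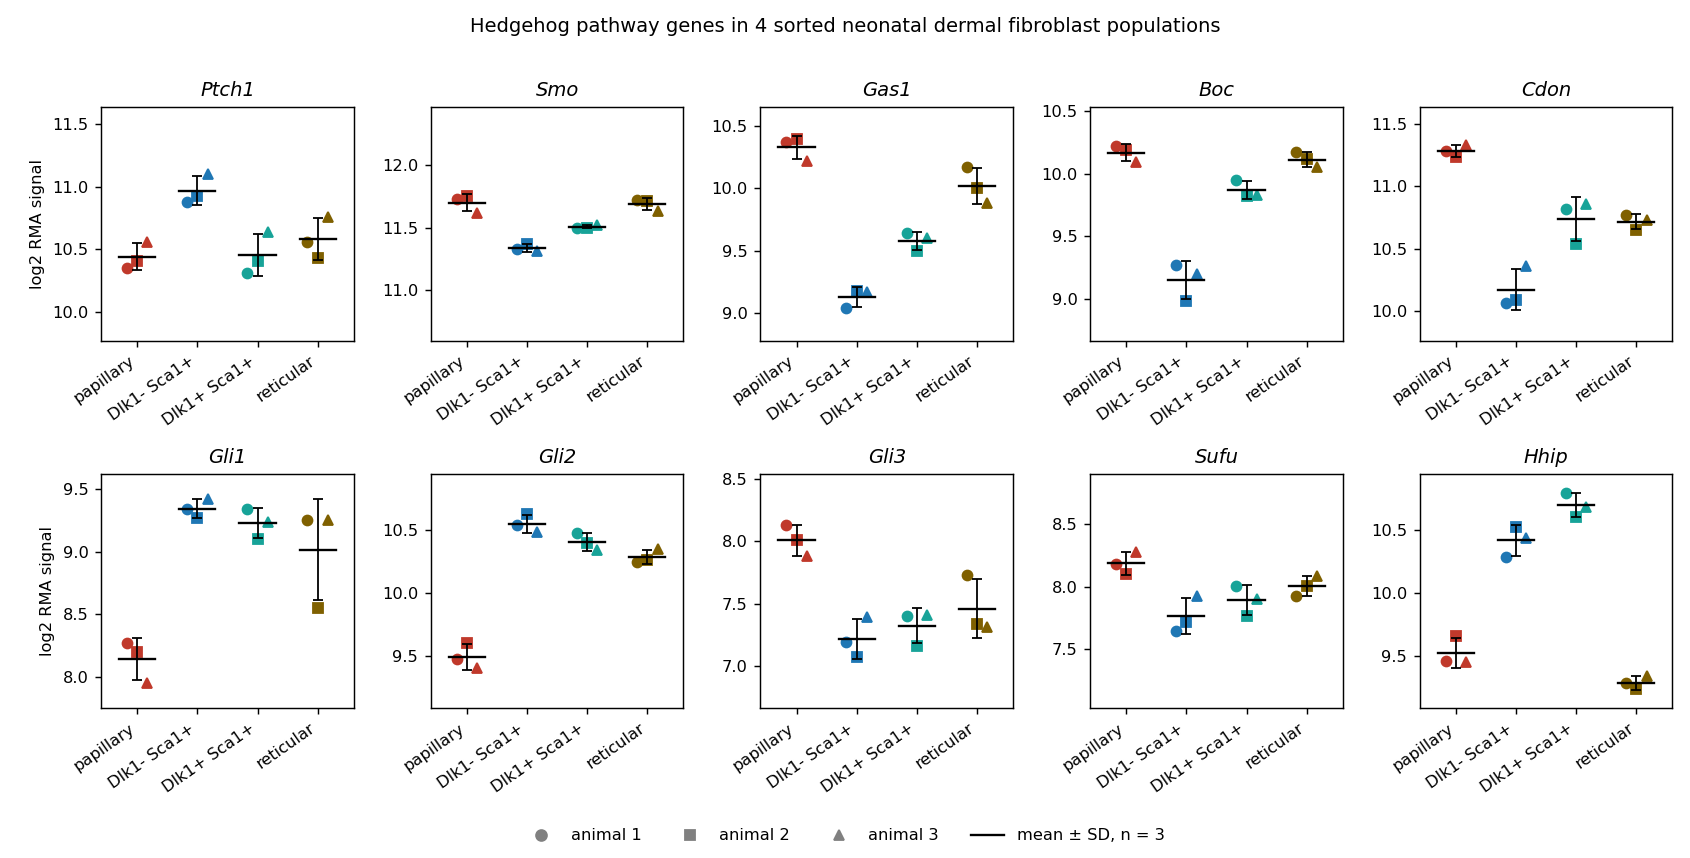
Log2 RMA signal (vertical axis, the same span of log2 units in every panel) of each of the 10 genes in papillary, Dlk1- Sca1+, Dlk1+ Sca1+ and reticular cells (horizontal axis). Symbols are the 3 animals, and black lines are the mean ± SD (n = 3). All 3 papillary arrays lie above or below the other 9 for Gas1, Cdon, Gli1, Gli2, Gli3 and Sufu, as do the Dlk1- Sca1+ arrays for Ptch1, Smo, Gas1, Boc, Cdon and Gli2.

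The receptor pair came first. Ptch1, which binds the ligand and is also induced by the pathway, had log2 signals in animals 1, 2 and 3 of 10.35, 10.41 and 10.56 in papillary fibroblasts, 10.88, 10.93 and 11.10 in Dlk1- Sca1+ cells, 10.31, 10.41 and 10.64 in Dlk1+ Sca1+ cells, and 10.56, 10.43 and 10.76 in reticular fibroblasts. All 3 Dlk1- Sca1+ arrays lay above the other 9 arrays, whose ranges overlapped one another. Ptch1 was lower in papillary fibroblasts than in Dlk1- Sca1+ cells by a log2 difference of -0.53 ± 0.11 (SE, adjusted p = 0.00261). It was higher in Dlk1- Sca1+ than in Dlk1+ Sca1+ cells (0.52 ± 0.11 log2, adjusted p = 0.0110) and higher in Dlk1- Sca1+ than in reticular cells (0.39 ± 0.11 log2, adjusted p = 0.0268). In these bulk samples, fewer cells that carry a transcript cannot be told apart from less transcript in each cell, here and for every gene below. The other 3 populations did not differ from one another by this test: papillary minus reticular was -0.14 (95% interval -0.38 to 0.10) and papillary minus Dlk1+ Sca1+ was -0.01 (-0.25 to 0.23). The call of Dlk1- Sca1+ over reticular cells was lost without Dlk1- Sca1+ animal 3 (adjusted p = 0.111), reticular animal 1 (0.0679) or reticular animal 2 (0.113), and that over Dlk1+ Sca1+ cells without Dlk1- Sca1+ animal 3 (0.0517) or Dlk1+ Sca1+ animal 1 (0.0533).

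Smo, the membrane protein that Ptch1 holds in check, had the narrowest span of the 10 genes, 0.36 between the highest and the lowest population mean on the log2 scale. Its log2 signals in animals 1, 2 and 3 were 11.73, 11.75 and 11.62 in papillary fibroblasts, 11.33, 11.37 and 11.31 in Dlk1- Sca1+ cells, 11.50, 11.50 and 11.52 in Dlk1+ Sca1+ cells, and 11.72, 11.71 and 11.63 in reticular fibroblasts. The ranges of both Sca1+ populations lay below those of papillary and reticular cells and apart from each other. Smo was 1.29-fold higher in papillary cells than in Dlk1- Sca1+ cells (0.36 ± 0.066 log2, adjusted p = 0.000926) and lower in Dlk1- Sca1+ than in reticular cells (-0.35 ± 0.066 log2, adjusted p = 0.00215). Papillary and reticular cells differed by 0.01 (95% interval -0.13 to 0.16, adjusted p = 0.930). Neighbours in the order of levels did not pass the test: Dlk1+ Sca1+ minus reticular was -0.18 (adjusted p = 0.132) and Dlk1- Sca1+ minus Dlk1+ Sca1+ was -0.17 (adjusted p = 0.164), while with a trend in the prior variance they did (0.0219 and 0.0313). The call of papillary over Dlk1+ Sca1+ cells (0.19 log2, adjusted p = 0.0431) was lost without papillary animal 1 (0.128) or 2 (0.151) and without Dlk1+ Sca1+ animal 1 (0.0901), 2 (0.105) or 3 (0.0879).

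The 3 co-receptors, which bind Hedgehog ligands beside Ptch1 and strengthen the response, were all lowest in Dlk1- Sca1+ cells. Gas1, a lipid-anchored surface protein, had log2 signals in animals 1, 2 and 3 of 10.37, 10.39 and 10.22 in papillary fibroblasts, 9.04, 9.18 and 9.17 in Dlk1- Sca1+ cells, 9.64, 9.50 and 9.60 in Dlk1+ Sca1+ cells, and 10.17 and 9.88 in reticular animals 1 and 3, with reticular animal 2 between them. The 4 ranges did not overlap, and all 6 comparisons of Gas1 passed the test. It was 2.29-fold higher in papillary cells than in Dlk1- Sca1+ cells (1.20 ± 0.088 log2, adjusted p = 3.16e-07). It was also higher in papillary cells than in Dlk1+ Sca1+ cells (0.75 log2, adjusted p = 2.39e-05), lower in Dlk1- Sca1+ than in reticular cells (-0.89 log2, adjusted p = 1.51e-05) and lower in Dlk1+ Sca1+ than in reticular cells (-0.44 log2, adjusted p = 0.00768). Dlk1- Sca1+ cells were below Dlk1+ Sca1+ cells by -0.45 log2 (adjusted p = 0.00680). The smallest difference, papillary over reticular cells (0.31 ± 0.088 log2, adjusted p = 0.0180), did not pass without papillary animal 1 (0.0656), papillary animal 2 (0.0727), reticular animal 2 (0.0526) or reticular animal 3 (0.0834).

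Boc, an immunoglobulin-like transmembrane co-receptor, had log2 signals in animals 1, 2 and 3 of 10.22, 10.19 and 10.09 in papillary fibroblasts, 9.27, 8.98 and 9.20 in Dlk1- Sca1+ cells, 9.95, 9.82 and 9.83 in Dlk1+ Sca1+ cells, and 10.17, 10.12 and 10.05 in reticular fibroblasts. Papillary and reticular ranges overlapped (difference 0.05, 95% interval -0.13 to 0.24, adjusted p = 0.754), and the Dlk1- Sca1+ arrays lay below all others. Boc was 2.02-fold higher in papillary cells than in Dlk1- Sca1+ cells (1.02 ± 0.085 log2, adjusted p = 1.07e-06). It was lower in Dlk1- Sca1+ cells than in reticular cells (-0.96 log2, adjusted p = 5.70e-06) and than in Dlk1+ Sca1+ cells (-0.72 log2, adjusted p = 0.000189). Dlk1+ Sca1+ minus reticular was -0.25 with an adjusted p of 0.109, and 0.0445 in the paired fit with animal as a replicate block. Papillary over Dlk1+ Sca1+ (0.30 log2, adjusted p = 0.0175) did not pass without papillary animal 1 (0.0680) or 2 (0.0581), or without Dlk1+ Sca1+ animal 2 (0.0639) or 3 (0.0614).

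Cdon, a close relative of Boc, had log2 signals in animals 1, 2 and 3 of 11.28, 11.23 and 11.33 in papillary fibroblasts, 10.07, 10.09 and 10.36 in Dlk1- Sca1+ cells, 10.82, 10.54 and 10.86 in Dlk1+ Sca1+ cells, and 10.77, 10.65 and 10.73 in reticular fibroblasts. All papillary arrays were above and all Dlk1- Sca1+ arrays below the rest, while Dlk1+ Sca1+ and reticular ranges overlapped (difference 0.02, 95% interval -0.19 to 0.24, adjusted p = 0.965). Cdon was 2.15-fold higher in papillary cells than in Dlk1- Sca1+ cells (1.11 ± 0.10 log2, adjusted p = 2.24e-06). Papillary cells also exceeded reticular cells (0.56 log2, adjusted p = 0.000832) and Dlk1+ Sca1+ cells (0.54 log2, adjusted p = 0.00109). Dlk1- Sca1+ cells fell below reticular cells (-0.54 log2, adjusted p = 0.00198) and below Dlk1+ Sca1+ cells (-0.57 log2, adjusted p = 0.00349).

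**Figure D2:**
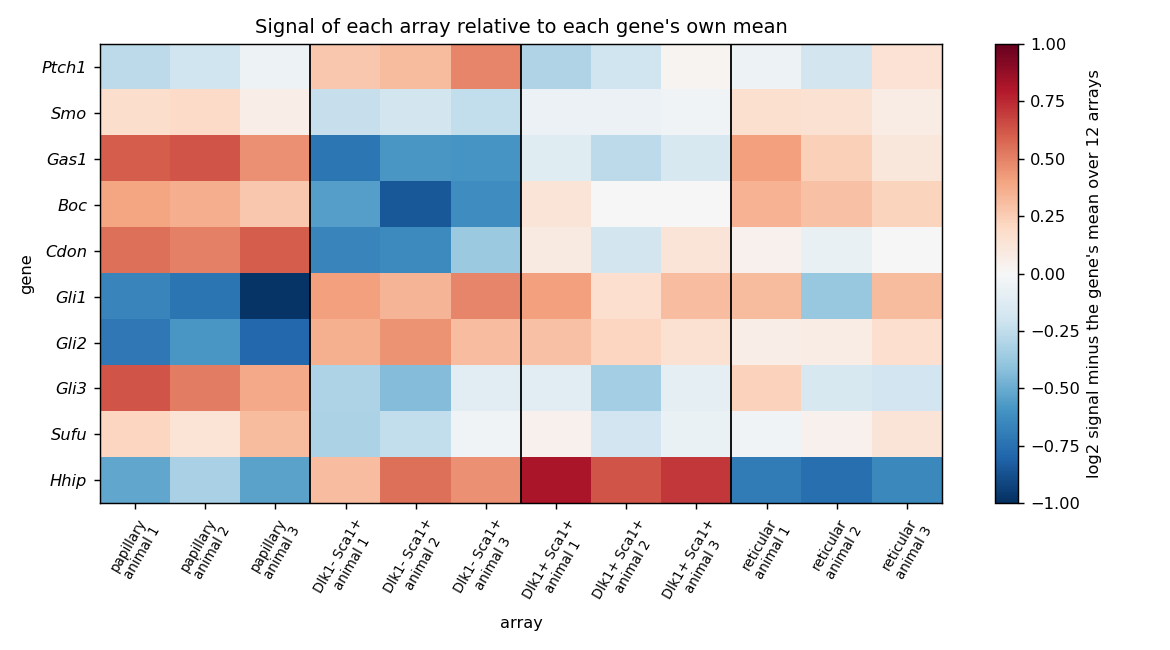
Log2 signal of each array (columns, 4 populations of 3 animals) minus the gene's own mean over the 12 arrays (colour, log2 units), for the 10 genes (rows). Gas1, Boc and Cdon are red in papillary and blue in Dlk1- Sca1+ arrays, Gli1 and Gli2 are blue in papillary arrays, and Hhip is red in both Sca1+ populations.

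Among the Gli factors, Gli1 and Gli2 were low and Gli3 was high in papillary fibroblasts relative to every other population. Gli1, an activator and itself a target that serves as a readout of the pathway, had log2 signals in animals 1, 2 and 3 of 8.27, 8.20 and 7.95 in papillary fibroblasts, 9.34, 9.27 and 9.42 in Dlk1- Sca1+ cells, 9.34, 9.10 and 9.24 in Dlk1+ Sca1+ cells, and 9.25, 8.55 and 9.25 in reticular fibroblasts. Every papillary array was below every other array, and reticular animal 2 was the lowest outside the papillary population. Gli1 was 2.30-fold lower in papillary cells than in Dlk1- Sca1+ cells (-1.20 ± 0.16 log2, adjusted p = 7.94e-05). It was also lower in papillary cells than in Dlk1+ Sca1+ cells (-1.09 log2, adjusted p = 0.000178) and than in reticular cells (-0.88 ± 0.16 log2, adjusted p = 0.00104). The other 3 populations did not pass the test against one another. Dlk1- Sca1+ minus reticular was 0.33 (95% interval -0.02 to 0.68, adjusted p = 0.215), with within-animal differences of 0.09, 0.72 and 0.17.

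Gli2, the main activator in most mouse tissues, had log2 signals in animals 1, 2 and 3 of 9.47, 9.60 and 9.40 in papillary fibroblasts, 10.54, 10.63 and 10.49 in Dlk1- Sca1+ cells, 10.48, 10.40 and 10.34 in Dlk1+ Sca1+ cells, and 10.25, 10.26 and 10.35 in reticular fibroblasts. The gap between the highest papillary array and the lowest other array was wide compared with the spread in any population. Gli2 was 2.09-fold lower in papillary cells than in Dlk1- Sca1+ cells (-1.06 ± 0.077 log2, adjusted p = 2.61e-07). It was also lower against Dlk1+ Sca1+ cells (-0.92 log2, adjusted p = 9.77e-07) and reticular cells (-0.80 log2, adjusted p = 4.61e-06). Neighbours in the order of the remaining 3 did not pass: Dlk1- Sca1+ minus Dlk1+ Sca1+ was 0.15 (adjusted p = 0.350) and Dlk1+ Sca1+ minus reticular was 0.12 (adjusted p = 0.492). Dlk1- Sca1+ over reticular cells (0.27 log2, adjusted p = 0.0285) did not pass without Dlk1- Sca1+ animal 1 (0.0653) or 2 (0.0983) or reticular animal 1 (0.0759) or 2 (0.0809).

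Gli3, which acts mostly as the repressor of the pathway, had log2 signals in animals 1, 2 and 3 of 8.13, 8.01 and 7.88 in papillary fibroblasts, 7.19, 7.07 and 7.39 in Dlk1- Sca1+ cells, 7.40, 7.16 and 7.41 in Dlk1+ Sca1+ cells, and 7.73, 7.34 and 7.31 in reticular fibroblasts. All papillary arrays were above all others, and the other 3 ranges overlapped. Gli3 was 1.73-fold higher in papillary cells than in Dlk1- Sca1+ cells (0.79 ± 0.13 log2, adjusted p = 0.000352). Papillary cells exceeded Dlk1+ Sca1+ cells by 0.68 log2 (adjusted p = 0.00101) and reticular cells by 0.55 log2 (adjusted p = 0.00505). No other pair passed, and the widest, Dlk1- Sca1+ minus reticular, was -0.24 (95% interval -0.52 to 0.03, adjusted p = 0.242).

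Sufu, which binds Gli proteins and holds them back, had log2 signals in animals 1, 2 and 3 of 8.18, 8.10 and 8.28 in papillary fibroblasts, 7.65, 7.72 and 7.93 in Dlk1- Sca1+ cells, 8.01, 7.77 and 7.90 in Dlk1+ Sca1+ cells, and 7.93, 8.01 and 8.09 in reticular fibroblasts. The papillary arrays lay above all others by a small margin. Sufu was 1.34-fold higher in papillary cells than in Dlk1- Sca1+ cells (0.42 ± 0.094 log2, adjusted p = 0.00427). Papillary minus reticular was 0.18 (95% interval -0.03 to 0.38, adjusted p = 0.209). Dlk1- Sca1+ minus reticular was -0.24 with an adjusted p of 0.0996, against 0.0441 in the paired fit with the replicate block and 0.0415 without Dlk1- Sca1+ animal 3. The call of papillary over Dlk1+ Sca1+ cells (0.29 log2, adjusted p = 0.0320) was lost without papillary animal 1 (0.0752) or 3 (0.120) or Dlk1+ Sca1+ animal 2 (0.135) or 3 (0.0734).

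Hhip, a membrane protein that binds Hedgehog ligands and keeps them from Ptch1, and that the pathway induces, split the populations by their Sca1 label. Its log2 signals in animals 1, 2 and 3 were 9.46, 9.66 and 9.45 in papillary fibroblasts, 10.29, 10.53 and 10.44 in Dlk1- Sca1+ cells, 10.80, 10.61 and 10.69 in Dlk1+ Sca1+ cells, and 9.28, 9.23 and 9.34 in reticular fibroblasts. The 4 ranges did not overlap, and the wide gap ran between the Sca1+ populations and the other 2. Hhip was 2.67-fold higher in Dlk1+ Sca1+ than in reticular cells (1.42 ± 0.088 log2, adjusted p = 7.08e-07) and 2.20-fold higher in Dlk1- Sca1+ than in reticular cells (1.14 ± 0.088 log2, adjusted p = 1.70e-06). It was lower in papillary cells than in Dlk1+ Sca1+ cells (-1.18 log2, adjusted p = 3.32e-07) and than in Dlk1- Sca1+ cells (-0.90 log2, adjusted p = 4.60e-06). Dlk1- Sca1+ minus Dlk1+ Sca1+ was -0.28 (95% interval -0.47 to -0.09, adjusted p = 0.0808), and 0.0445 with a trend in the prior variance. Papillary minus reticular was 0.24 (95% interval 0.05 to 0.43, adjusted p = 0.0618) and passed with arrays centred on their medians (0.0325), with the mean over the gene's probe sets (0.0169) and with the variance trend (0.0371).

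**Figure D3:**
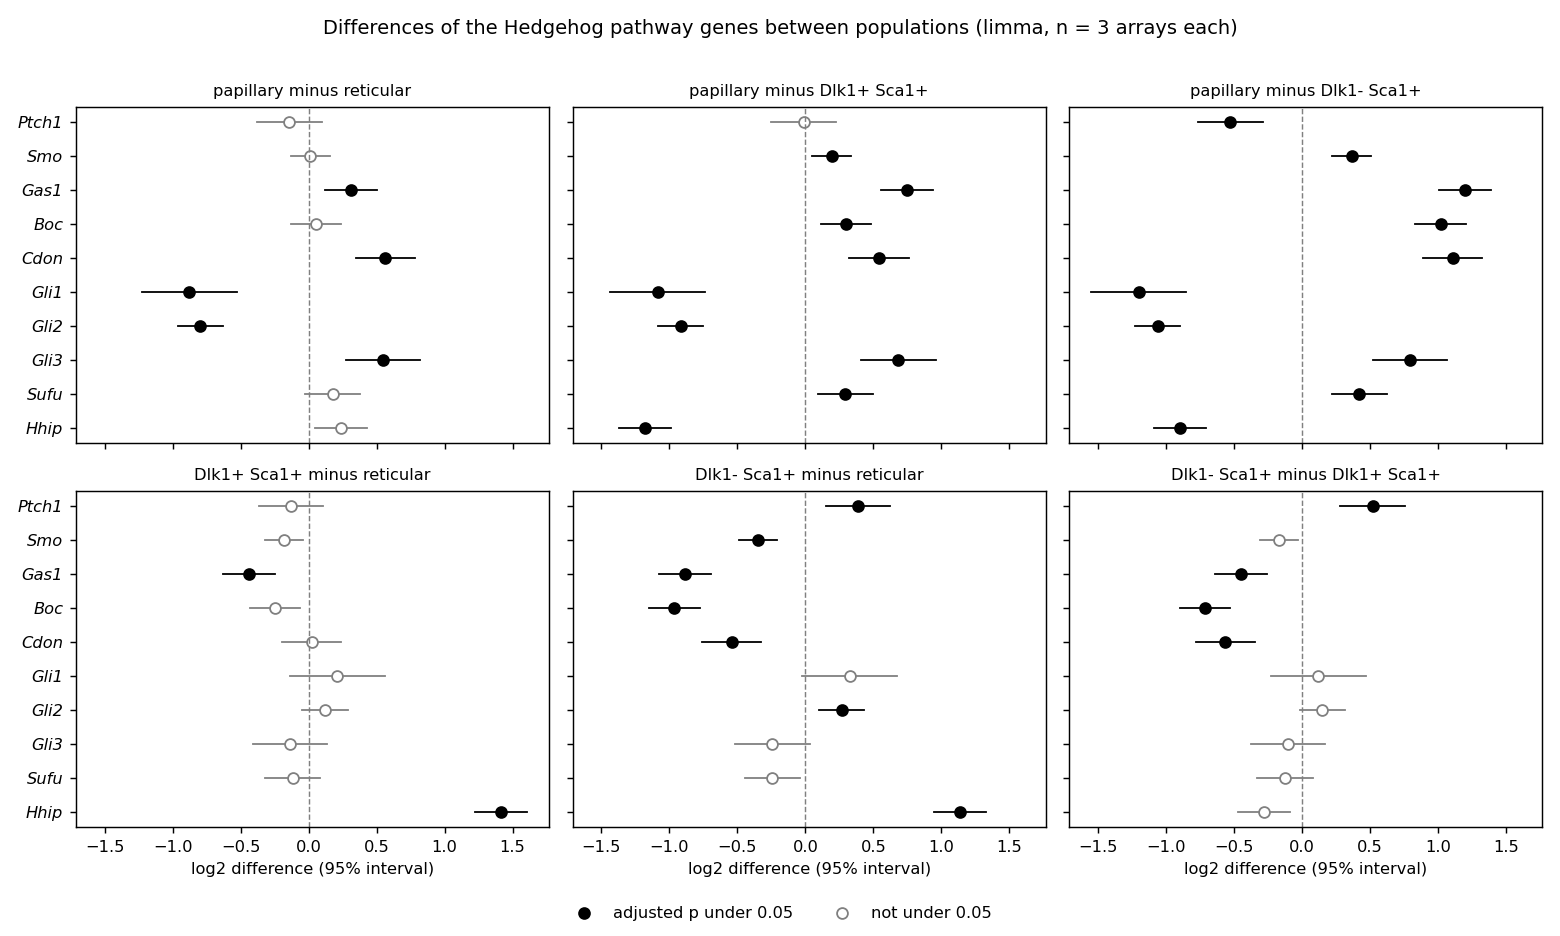
Log2 difference (horizontal axis) of each of the 10 genes (vertical axis) in the 6 comparisons, each panel named as first minus second population. Points are limma estimates, bars their 95% intervals (n = 3 arrays each), and filled points have an adjusted p below 0.05. All 10 points are filled for papillary minus Dlk1- Sca1+ cells, against 2 for Dlk1+ Sca1+ minus reticular cells.

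Counted over the pathway, the comparison of papillary with Dlk1- Sca1+ cells held the most calls. There all 10 genes passed, 6 higher in papillary cells (Smo, Gli3, Gas1, Boc, Cdon and Sufu) where 13.1% of all genes were higher, and 4 lower (Ptch1, Gli1, Gli2 and Hhip) where 13.3% were lower. Against Dlk1+ Sca1+ cells, the same 6 genes were higher in papillary cells (14.1% of all genes) and Gli1, Gli2 and Hhip were lower (13.9%). Against reticular cells, Gli3, Gas1 and Cdon were higher in papillary cells (13.9% of all genes) and Gli1 and Gli2 were lower (13.6%). The 3 comparisons share the papillary arrays, so their calls are not independent of one another. Because the genes were chosen with earlier results of these data known, the counts beside the shares describe the list and do not test it.

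The 3 comparisons without papillary cells had 7, 4 and 2 of the 10 genes called. In Dlk1- Sca1+ against reticular cells, Ptch1, Gli2 and Hhip were higher (3 of 10, 9.36% of all genes) and Smo, Gas1, Boc and Cdon were lower (4 of 10, 8.8% of all genes). In Dlk1- Sca1+ against Dlk1+ Sca1+ cells, Ptch1 was higher (1 of 10, 3.23% of all genes) and Gas1, Boc and Cdon were lower (3 of 10, 4.13%). In Dlk1+ Sca1+ against reticular cells, Hhip was higher (1 of 10, 4.06%) and Gas1 lower (1 of 10, 4.37%). With arrays centred on their medians, that last comparison had 885 genes higher and 622 lower among all genes, in place of 694 and 747, and the same count of 2 pathway genes. The same centring gave 2892 higher and 2042 lower for papillary minus reticular cells, in place of 2375 and 2327, and 1847 and 1283 for Dlk1- Sca1+ minus reticular cells, in place of 1600 and 1504. Of the 60 comparisons of a gene between populations 37 passed. In all 37 the difference had one sign in all 3 animals and the ranges did not overlap. The arrays are those that gave the calls, and no such count over all genes stands beside it. It therefore adds no support beyond the calls themselves.

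Several of these genes were read by more than 1 probe set, and the brightest was taken. The 10 genes had 21 probe sets, with more than 1 for 8 genes, and Gli1 and Gas1 had 1 each. Over 66 comparisons of another probe set with the taken one, tested among all probe sets, 31 passed in both in the same direction, 25 in neither, 7 in the taken one alone and 3 in the other alone, and 0 passed in opposite directions. The other Gli2 probe set gave papillary minus Dlk1- Sca1+ as -1.68 where the taken one gave -1.06. The 3 other Hhip probe sets gave Dlk1+ Sca1+ minus reticular as 1.35, 1.66 and 1.90, beside 1.42. The second Boc probe set was dim, with a mean log2 signal of 5.16 against 9.82 for the taken one, and passed in none of the 6 comparisons. For Sufu, one of the other probe sets was higher in papillary cells than in reticular cells by 0.67, where the taken one did not pass. The remaining Sufu probe set, with a mean of 5.315, passed in none of the 6 comparisons. In papillary minus reticular cells, other Hhip probe sets gave 0.66 (limma, adjusted p = 0.0439) and 0.42 (0.0375) and passed, where the taken Hhip probe set did not. The other Smo probe set, with a mean of 7.12, gave Dlk1- Sca1+ minus reticular as -0.17 and did not pass (adjusted p = 0.418). The taken one gave -0.35 and passed. Papillary minus reticular was 0.23 in the other Smo probe set and 0.01 in the taken one, and neither passed.

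**Figure D4:**
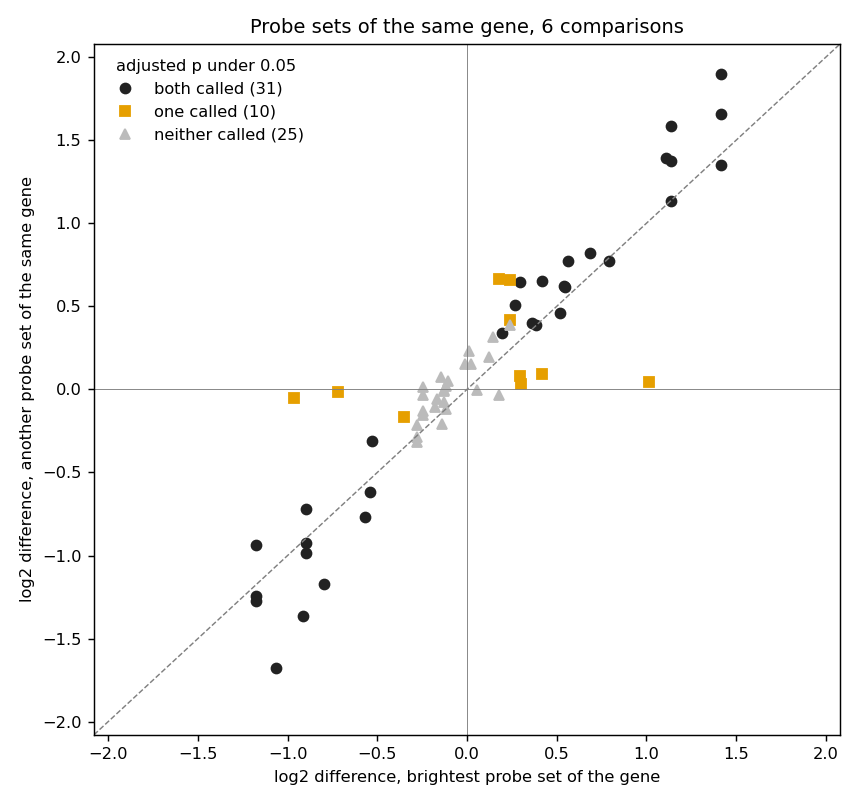
Log2 difference from another probe set of a gene (vertical axis) against that from its brightest probe set (horizontal axis), for the 8 genes with more than 1 probe set in 6 comparisons. Points are split by whether both (31), one (10) or neither (25) had an adjusted p below 0.05, and the dashed line marks equal differences. The points along the horizontal axis far from 0 belong to Boc, whose second probe set is dim.

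Genes whose signal followed a pathway gene most closely were read as a description over the 12 arrays, which form 4 populations of 3 littermates, so a high Pearson r mostly means a like order of population means. Among the 6099 other genes passing the F-test, Gli2 was closest to Map3k6 (r = 0.991), the leptin receptor gene Lepr (0.987) and Vegfa (0.986). Boc was closest to the glypican gene Gpc6 (0.985), Tgfbi (0.983) and Mertk (0.977). Cdon was closest to Fam171b (0.987), Abca9 (0.974) and Pam (0.972), and Hhip to Gfra2 (0.973), Serpina3n (0.961) and Nagk (0.958). For Smo, 1 of the 3 closest genes was another of the 10, Gas1 (0.963), after Cacng7 (0.967) and App (0.965). The closest gene to Gas1 was Mark1 (0.978), that to Gli3 was Cuedc2 (0.962), that to Gli1 was Snx3 (0.958), that to Sufu was Snx8 (0.952) and that to Ptch1 was Sesn3 (0.944). Within the pathway, Gli1 and Gli2 had an r of 0.93 and Gli2 and Gli3 an r of -0.91.

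The wider pathway was read in 5 lists, of which 65 of 76 genes were measured. Of the genes for ligands and their release, 3 of 7 passed the F-test, a share near the 35.7% of all genes. The ligand gene Shh had mean log2 signals of 6.93 in papillary, 6.94 in Dlk1- Sca1+, 6.90 in Dlk1+ Sca1+ and 6.91 in reticular cells (F-test, adjusted p = 0.990). The ligand gene Ihh had 6.15, 6.11, 6.13 and 6.13 in the same order, so neither separated the populations. These Ihh means lie below the array medians of 6.21 to 6.34. Signal above background was not tested, so the equal means do not show that Shh or Ihh was expressed. Dhh, the ligand known from Schwann cells, was dim, and lower in papillary cells than in Dlk1+ Sca1+ cells (means 5.56 and 6.17, difference -0.61 log2, adjusted p = 0.000778). Disp1, which releases lipid-modified ligand from producing cells, had mean log2 signals of 8.63 in papillary, 6.97 in Dlk1- Sca1+, 7.61 in Dlk1+ Sca1+ and 8.01 in reticular cells. It was 3.17-fold higher in papillary cells than in Dlk1- Sca1+ cells (1.66 ± 0.13 log2, adjusted p = 3.76e-07). Scube2, a secreted helper of ligand release, was lower in papillary cells than in reticular cells (means 5.79 and 6.93, difference -1.14 log2, adjusted p = 1.57e-06) and lower in Dlk1- Sca1+ than in reticular cells (-1.03 log2, adjusted p = 1.01e-05). In papillary against reticular cells 1 gene of this list was higher (13.9% of all genes) and 3 were lower (13.6%). Against Dlk1+ Sca1+ cells 1 was higher (14.1%) and 2 were lower (13.9%), and against Dlk1- Sca1+ cells 1 was higher (13.1%) and 2 were lower (13.3%). A single gene higher out of 7 is about the share of all genes.

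The next list held surface proteoglycans of the glypican family and Ext1, an enzyme of the Golgi that makes heparan sulphate chains, and in it Gpc6 had the widest gap. Gpc6, a glypican, had mean log2 signals (n = 3) of 9.95 in papillary, 7.72 in Dlk1- Sca1+, 9.50 in Dlk1+ Sca1+ and 9.88 in reticular cells. As for Boc and Gas1, the Dlk1- Sca1+ arrays lay below all others. It was 4.69-fold higher in papillary cells than in Dlk1- Sca1+ cells (2.23 ± 0.089 log2, adjusted p = 1.20e-09) and lower in Dlk1- Sca1+ than in Dlk1+ Sca1+ cells (-1.79 log2, adjusted p = 2.83e-07). All 3 measured genes of this list, Gpc6, Gpc4 and Ext1, passed the F-test (35.7% of all genes). In Dlk1- Sca1+ against reticular cells 2 of the 3 were lower (8.8% of all genes).

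Of the genes that relay the signal from Smo to the Gli proteins, 8 of 23 passed the F-test, a share near the 35.7% of all genes. Evc2, a ciliary partner of Smo, was lower in papillary cells than in reticular cells (means 6.54 and 7.31, difference -0.78 log2, adjusted p = 0.000873). Gpr161, a ciliary receptor that favours Gli repressor formation, was higher in Dlk1- Sca1+ than in Dlk1+ Sca1+ cells (means 8.84 and 8.12, difference 0.72 log2, adjusted p = 0.000363). Tulp3, which brings receptors into the cilium, was higher in papillary cells than in reticular cells (means 8.88 and 8.16, difference 0.72 log2, adjusted p = 0.00155). Csnk1a1, a kinase that marks Gli proteins for processing, was lower in papillary cells than in Dlk1- Sca1+ cells (means 9.97 and 10.41, difference -0.44 log2, adjusted p = 0.00177). In papillary against reticular cells 2 of the 23 were higher (13.9% of all genes) and 1 lower (13.6%), and against Dlk1+ Sca1+ cells 4 were higher (14.1%) and 2 lower (13.9%). In papillary against Dlk1- Sca1+ cells 3 of the 23 were higher (13.1%) and 4 lower (13.3%), with a median difference of 0.12 beside -0.00333 over all genes.

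Of the primary cilium genes, 8 of 14 passed the F-test, beside 35.7% of all genes. Kif3a, a subunit of the motor that carries cargo into the cilium, was higher in papillary cells than in reticular cells (means 8.64 and 7.85, difference 0.78 log2, adjusted p = 7.03e-05), than in Dlk1+ Sca1+ cells (0.92 log2, adjusted p = 1.44e-05) and than in Dlk1- Sca1+ cells (0.62 log2, adjusted p = 0.000510). Ift80, part of the intraflagellar transport complex, was higher in papillary cells than in Dlk1+ Sca1+ cells (0.82 log2, adjusted p = 5.90e-05). In papillary against reticular cells 4 of the 14 were higher (13.9% of all genes) and 1 lower (13.6%), and against Dlk1+ Sca1+ cells 3 were higher (14.1%) and 1 lower (13.9%). In papillary against Dlk1- Sca1+ cells 4 were higher (13.1%) and 2 lower (13.3%), and the list's median difference was 0.00667.

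Genes reported elsewhere as Hedgehog targets did not share 1 direction, and 12 of 18 passed the F-test, beside 35.7% of all genes. Bmp4, a secreted growth factor, had log2 signals in animals 1, 2 and 3 of 8.71, 8.93 and 8.93 in papillary cells, 7.43, 6.86 and 7.01 in Dlk1- Sca1+ cells, 7.61, 7.64 and 7.14 in Dlk1+ Sca1+ cells, and 8.77, 8.51 and 9.18 in reticular cells. Both Sca1+ populations lay below the other 2, the reverse of Hhip, with Dlk1+ Sca1+ minus reticular at -1.36 ± 0.19 log2 (adjusted p = 0.000523). Igf2, a growth factor, was lower in papillary cells than in reticular cells (means 12.01 and 12.90, difference -0.89 log2, adjusted p = 1.29e-06) and lower in Dlk1- Sca1+ than in Dlk1+ Sca1+ cells (-0.81 log2, adjusted p = 2.84e-05). Nog, a BMP antagonist, was higher in papillary cells than in reticular cells (means 6.84 and 5.90, difference 0.95 log2, adjusted p = 0.000123). Sox9, a transcription factor also made by hair follicle epithelium, was lower in papillary cells than in Dlk1+ Sca1+ cells (means 6.47 and 8.21, difference -1.73 log2, adjusted p = 0.000741), with its highest single value, 9.21, in Dlk1- Sca1+ animal 1. Bcl2, a survival gene, was lower in Dlk1- Sca1+ than in reticular cells (means 9.25 and 9.99, difference -0.74 log2, adjusted p = 0.000306) and lower in Dlk1+ Sca1+ than in reticular cells (-0.63 log2, adjusted p = 0.00219). Vcan, a matrix proteoglycan, was lower in papillary cells than in Dlk1- Sca1+ cells (means 11.20 and 11.83, difference -0.63 log2, adjusted p = 3.58e-05). In papillary against reticular cells 3 of the 18 were higher (13.9% of all genes) and 7 lower (13.6%), with a median difference of -0.10. In Dlk1- Sca1+ against reticular cells 1 was higher (9.36%) and 6 lower (8.8%). In Dlk1+ Sca1+ against reticular cells 0 were higher (4.06%) and 5 lower (4.37%). In these comparisons with reticular cells, counts of higher genes were near or below the shares of all genes, and counts of lower genes above them. Papillary against Dlk1+ Sca1+ cells had 5 higher (14.1%) and 4 lower (13.9%). Papillary against Dlk1- Sca1+ cells had 4 higher (13.1%) and 2 lower (13.3%). Dlk1- Sca1+ against Dlk1+ Sca1+ cells had 1 higher (3.23%) and 1 lower (4.13%).

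**Figure D5:**
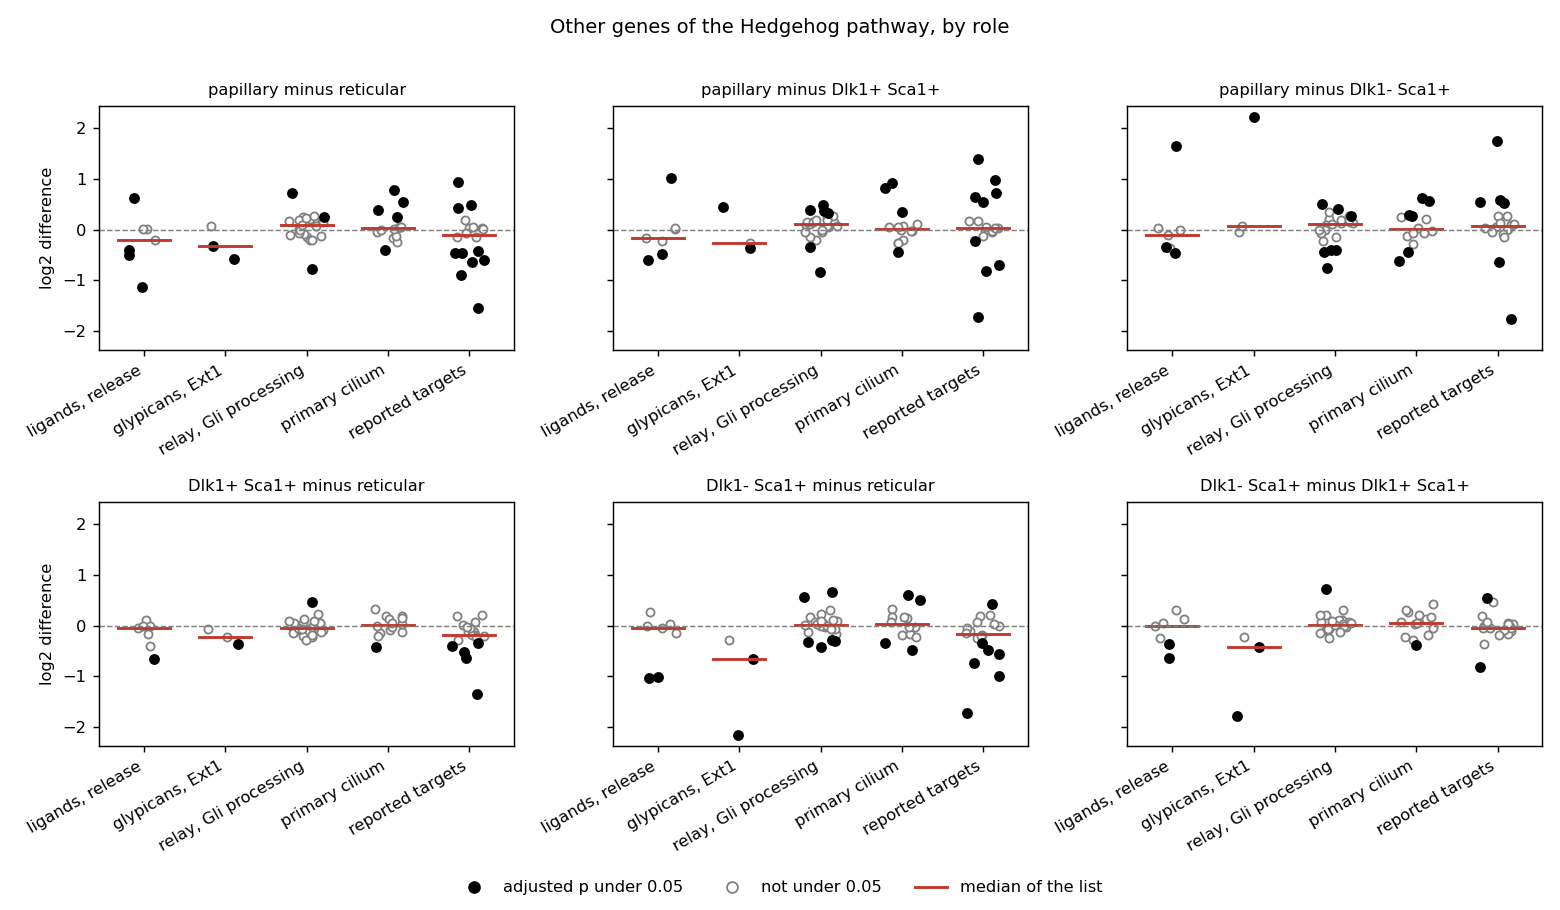
Log2 differences (vertical axis) of the genes in 5 further pathway lists (horizontal axis, by role), 1 panel a comparison, named as first minus second population. Each point is a gene, filled where its adjusted p is below 0.05, and red lines are list medians. List medians lie between -0.65 and 0.12, and the point at 2.23 in papillary minus Dlk1- Sca1+ cells is Gpc6.

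The labels were checked against marker genes. No gene for Sca1 was among the markers read, so the Sca1 part of the sort was not checked. Dpp4, which encodes CD26, averaged 10.61 in papillary, 6.37 in Dlk1- Sca1+, 6.26 in Dlk1+ Sca1+ and 6.30 in reticular cells on the log2 scale. Dlk1 averaged 9.97 in papillary, 11.39 in Dlk1- Sca1+, 12.86 in Dlk1+ Sca1+ and 12.97 in reticular cells, so its transcript was above the papillary level in the population sorted as Dlk1-. The mean of the 9 fibroblast markers lay between 10.76 and 11.10 on every array. Counts of marker genes passing the F-test, given below, stand beside 35.7% of all genes. The endothelial count and the Schwann cell and melanocyte count are near that share. The adipocyte list of 6 measured genes, 5 of them passing the F-test, had array means of 8.72 to 8.93 in Dlk1- Sca1+ and 8.55 to 8.68 in Dlk1+ Sca1+ cells, against 6.02 to 6.43 in papillary and 7.31 to 7.47 in reticular cells. Like Hhip it was higher in both Sca1+ populations than in the other 2, but within each pair of populations its order was the opposite of that of Hhip. The keratinocyte and follicle epithelium list of 12 measured genes had array means of 6.34 to 7.42 in papillary, 7.13 to 9.33 in Dlk1- Sca1+, 6.97 to 7.93 in Dlk1+ Sca1+ and 6.48 to 7.73 in reticular cells, and 1 of the 12 passed the F-test. The highest value, 9.33, was Dlk1- Sca1+ animal 1, where Krt5 reached 12.10 and Epcam 8.62. Without that array all 10 genes passed between papillary and Dlk1- Sca1+ cells, as did 6 between Dlk1- Sca1+ and reticular cells, against 7 with it. Leaving out 1 array does not test the part of epithelial cells in these calls. Of the dermal papilla list of 14 measured genes, 11 passed the F-test. Its array means were 6.48 to 6.53 in papillary and 6.30 to 6.37 in Dlk1- Sca1+ cells. They were 5.79 to 5.98 in Dlk1+ Sca1+ and 6.81 to 7.16 in reticular cells. In Dlk1+ Sca1+ against reticular cells 1 of the 14 was higher (4.06% of all genes) and 9 were lower (4.37%). In papillary against reticular cells 3 were higher (13.9%) and 7 lower (13.6%). Sox2, one of its defining markers, was dim, between 3.59 and 3.98 on all arrays, and does not stand for the list. Of the smooth muscle and pericyte list of 8 measured genes, 6 passed the F-test. Its array means were highest in reticular cells, 7.23 to 7.89, and lowest in papillary cells, 6.035 to 6.165. They were 6.24 to 6.47 in Dlk1- Sca1+ and 6.46 to 7.13 in Dlk1+ Sca1+ cells. In papillary against reticular cells 0 of the 8 were higher (13.9% of all genes) and 4 lower (13.6%). Of the Schwann cell and melanocyte list of 8, 3 passed. Its array means were 5.975 to 6.12 in papillary and 6.32 to 7.64 in Dlk1- Sca1+ cells. They were 6.295 to 6.89 in Dlk1+ Sca1+ and 6.19 to 6.36 in reticular cells. In papillary against Dlk1- Sca1+ cells 0 were higher (13.1%) and 5 lower (13.3%). Of the skeletal muscle list of 7, 4 passed the F-test. Its array means were 5.82 to 5.93 in papillary and 5.83 to 5.96 in Dlk1- Sca1+ cells. They were 6.02 to 6.16 in Dlk1+ Sca1+ and 6.44 to 6.50 in reticular cells. In papillary against reticular cells 3 of the 7 were lower (13.6% of all genes), with a median difference of -0.21. Acta1 averaged 5.12 in papillary and 8.16 in reticular cells, a far wider gap than that median. The endothelial list of 10, of which 3 passed, had array means of 5.80 to 5.92 in papillary and 5.92 to 6.28 in Dlk1- Sca1+ cells. They were 6.11 to 6.75 in Dlk1+ Sca1+ and 6.21 to 6.43 in reticular cells. In papillary against Dlk1+ Sca1+ cells 0 of the 10 were higher (14.1% of all genes) and 4 lower (13.9%). Against reticular cells 0 were higher in papillary cells (13.9%) and 3 lower (13.6%). Pecam1, which encodes the CD31 excluded by the gate, averaged 7.02 in papillary, 7.68 in Dlk1- Sca1+, 8.15 in Dlk1+ Sca1+ and 7.71 in reticular cells. The part of these other cells in the results was not tested.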

How the data were processed

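Expression was measured on Affymetrix arrays in 4 sorted populations from 3 littermates. The deposited table holds log2 values that the authors made with RMA and affy, as the submitters' processing notes name them (per the labels). Neither versions nor a genome build are stated there. RMA quantile-normalizes arrays, so a shift of all genes together would not be seen. Array medians lay between 6.21 and 6.34, the values between 3.3 and 13.27, and replicate arrays of a population correlated at 0.989 to 0.995, against 0.948 to 0.962 between papillary and other arrays. With 3 arrays a population, their number limits the precision.

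Of 45141 probe sets, 28898 had 1 gene symbol in the platform annotation, 551 had several and 15588 were unnamed here, beside 104 array controls. Each gene took its brightest probe set by the mean of all 12 arrays, which left 17097 genes. All 10 pathway genes had a mean of 5 or more. All genes were fitted with limma 3.58.1 (R 4.3.3; lmFit and eBayes) on all 12 arrays with population as the only term, 8 residual degrees of freedom. Adjusted p-values are Benjamini-Hochberg values over all genes from limma's moderated tests, and genes below 0.05 were called. The fit was tested on simulated data with 200 changed genes. Differences are first minus second population on the log2 scale, and folds are powers of them.

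The labels give each array a replicate number, the study names 3 littermates, and same-numbered arrays deviated together (mean r 0.266, over 0.1 in 17 of 18 pairs), so the numbers were taken as animals. Where animal as a replicate block changed a call, its value stands beside the result. Other alternatives were centring, repeated quantile normalization, a filter at a mean of 5, other probe set rules, a variance trend, the 6 arrays compared alone, and leaving out each array or animal.

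The pathway genes and lists were chosen with earlier results of these data known. All 10 pathway genes are named. Of each other list, up to 3 called genes a comparison by size of the difference were open to naming, with every ligand, and for each pathway gene the 3 genes of highest Pearson r. Some listed genes were not analysed here. Promoter sequences are RefSeq's (GRCm38.p6). Python, pandas and matplotlib made tables and figures.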

Additional observations from a re-analysis of the deposited data

How the results depend on the processing

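Of the 37 calls on the 10 pathway genes, 36 held under every alternative that kept all 12 arrays, 34 when the fits on only the 6 arrays compared were counted too, 30 under every left-out array, and 24 under every alternative including a left-out animal. All 10 genes passed between papillary and Dlk1- Sca1+ cells under every alternative run, and no called difference changed sign. Without 1 animal at a time, Gli1 lost papillary against reticular cells without animal 3 (adjusted p = 0.0574), Gli3 the same comparison without animal 2 (0.0675), and Cdon lost Dlk1- Sca1+ against Dlk1+ Sca1+ cells (0.102) and against reticular cells (0.0510) without animal 1. Gas1 lost Dlk1+ Sca1+ against reticular cells (0.0510 to 0.141) and Dlk1- Sca1+ against Dlk1+ Sca1+ cells (0.0646 to 0.0763) without any 1 animal. Ptch1 lost Dlk1- Sca1+ against reticular cells without animal 1 (0.0818) or 2 (0.243), and against Dlk1+ Sca1+ cells without animal 1 (0.104) or 2 (0.119). Gli2 lost Dlk1- Sca1+ against reticular cells whichever animal was left out (0.0834 to 0.250). Smo (0.107 to 0.303) and Boc (0.0505 to 0.119) likewise lost papillary against Dlk1+ Sca1+ cells. Sufu lost papillary against Dlk1+ Sca1+ cells without animal 2 (0.180) or 3 (0.182). Gas1 also lost papillary against reticular cells without animal 2 (0.195) or 3 (0.110). The fits without an animal have fewer arrays. With only the 6 arrays compared, Gli2 lost Dlk1- Sca1+ against reticular cells (0.0724) and Smo lost papillary against Dlk1+ Sca1+ cells (0.0832). With the mean over probe sets, Boc lost papillary against Dlk1+ Sca1+ cells (0.0508) and Sufu gained papillary against reticular cells (0.0090). Boc gained Dlk1+ Sca1+ against reticular cells with quantile normalization applied again (0.0354). Over the 4 populations, 7 to 10 of the 10 genes passed the F-test when an array or an animal was left out. No share of all genes in those fits stands beside that count.

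Leaving out arrays or animals, the pathway genes called ranged from 3 to 5 for papillary minus reticular, 6 to 8 for papillary minus Dlk1+ Sca1+ (9 with all arrays), 1 to 2 for Dlk1+ Sca1+ minus reticular, 4 to 7 for Dlk1- Sca1+ minus reticular and 1 to 4 for Dlk1- Sca1+ minus Dlk1+ Sca1+ cells. All genes called ranged from 498 to 1138, 1681 to 2864 and 532 to 1180 in the last 3 comparisons. For the papillary comparisons no range over all genes is given here. A drop in pathway genes there cannot be told apart from a general loss of calls. With all probe sets tested in place of 1 a gene, so that more features were counted, 11567 were called for papillary minus reticular, 12341 for papillary minus Dlk1+ Sca1+, 11304 for papillary minus Dlk1- Sca1+, 3031 for Dlk1+ Sca1+ minus reticular, 6873 for Dlk1- Sca1+ minus reticular and 2678 for Dlk1- Sca1+ minus Dlk1+ Sca1+ cells, against 4702, 4787, 4508, 1441, 3104 and 1258 genes. In the paired fit with animal as a replicate block, Dlk1- Sca1+ minus Dlk1+ Sca1+ cells had 1897 genes called, and the block changed no call on the pathway genes besides those of Boc and Sufu given with their values. Dim probe sets limit what the second Boc probe set can show.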
